A study of Mus musculus with 4 samples.

Results

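Enzymes that write and erase methyl marks on cytosine in DNA were examined as binding sites of METTL3, the catalytic subunit of the enzyme that places N6-methyladenosine on RNA. The 7 genes were Tet1, Tet2 and Tet3, which encode the TET dioxygenases, and Dnmt1, Dnmt3a, Dnmt3b and Dnmt3l, which encode the DNA methyltransferases and a catalytically inactive cofactor. Members were the METTL3 peaks whose centre lay within 100 kb of one of these gene bodies on mm10. They numbered 4 of the 634 listed peaks, 3 of 353 in replicate 1 and 1 of 281 in replicate 2. Peaks came from chromatin immunoprecipitation and sequencing (ChIP-seq) of wild-type C57BL/6 mouse embryonic stem cells. All libraries came from cells kept in LIF with CHIR99021 and PD0325901 and fixed with 1% formaldehyde. The 2 immunoprecipitations (IP) used a rabbit METTL3 antibody, and the 2 inputs were sonicated chromatin with no antibody. No arm without METTL3 was analysed here, and nothing in the labels states that replicates were separate cultures, so their spread may be technical. Peak lists hold no expression values, so the cell type label was not checked against markers.

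DNA methylation in mammals is set at CpG dinucleotides. DNMT3A and DNMT3B add the mark to unmethylated DNA, DNMT3L stimulates them, and DNMT1 copies the mark after replication. TET enzymes oxidise methylcytosine, which leads to its loss. Embryonic stem cells express Tet1 and Tet2, whereas Tet3 is best known from the oocyte and zygote, and inhibitor culture of these cells is known for low DNA methylation.

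Depth was similar between IP libraries, at 22246555 and 21793898 tags, but not between inputs, at about 24800000 and 14900000. Peaks of 171 bp and 169 bp were called in each IP against the input of the same number. Height below means IP tags in a peak, scaled to a library of 10000000 tags, and a shared peak overlaps a peak of the other list by at least 1 bp. The median peak had a height of 8.09 in replicate 1 and 8.72 in replicate 2. Shared peaks numbered 195, or 55.2% and 69.4% of the lists. Intervals are 95% intervals that cover counting error only.

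For each of the 3 genes with a peak, the start site nearest to the peak is shown, because DNA methylation is set at CpG. Whether CpG at these gene starts was methylated was not measured. Each sequence holds the 250 bases before a start site on the gene's strand, from RefSeq on GRCm38.p6 (mm10), with each CpG in capitals.
Tet2, chr3:133544391-133544640, minus strand: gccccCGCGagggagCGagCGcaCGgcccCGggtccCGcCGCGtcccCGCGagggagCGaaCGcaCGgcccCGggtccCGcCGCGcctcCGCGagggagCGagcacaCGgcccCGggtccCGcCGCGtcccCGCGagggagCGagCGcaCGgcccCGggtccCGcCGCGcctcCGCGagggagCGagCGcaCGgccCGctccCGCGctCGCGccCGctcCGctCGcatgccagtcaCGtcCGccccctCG
Tet1, chr10:62887325-62887574, minus strand: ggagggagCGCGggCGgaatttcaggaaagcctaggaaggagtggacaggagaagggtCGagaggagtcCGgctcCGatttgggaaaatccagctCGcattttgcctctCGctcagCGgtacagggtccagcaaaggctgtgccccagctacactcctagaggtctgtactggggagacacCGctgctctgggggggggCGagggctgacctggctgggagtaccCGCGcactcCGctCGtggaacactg
Dnmt3a, internal start, chr12:3891494-3891743, plus strand: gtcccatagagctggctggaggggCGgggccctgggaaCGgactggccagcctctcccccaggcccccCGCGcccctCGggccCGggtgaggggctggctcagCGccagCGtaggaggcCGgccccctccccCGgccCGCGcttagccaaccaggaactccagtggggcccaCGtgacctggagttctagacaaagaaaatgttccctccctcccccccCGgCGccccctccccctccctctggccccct
The Tet2 window held 51 CpG, more than 99.9% of the 32851 start-site windows in the table, whose median was 6. Much of the Tet2 window was the same stretch repeated with few changes, so its CpG were counted anew in each copy. Windows at Tet1 and at the internal Dnmt3a start held 15 each, more than 72.7% of windows. The other 2 Dnmt3a starts, not shown, held 38 and 40, more than 98.1% and 98.7% of windows, so high CpG density was not particular to Tet2. CG reads the same on both strands, and 92.1% of all windows held at least 1. None of the 4 peaks overlapped any start-site window in the table, taken as 250 bases before to 50 after the start. Over the whole lists 6 peaks of replicate 1 (1.70%) and 3 of replicate 2 (1.07%) did so.

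Among the TET genes, Tet2 held one of the tallest METTL3 sites of either list, and it was found in both replicates. In replicate 1 the peak (chromosome 3, 133524843 to 133525013) had a height of 33.7, from 75 IP tags. In replicate 2 (133524818 to 133524986) it had a height of 48.6, from 106 IP tags. Both libraries were far above the median height of their list, and in replicate 2 no listed peak was taller. The Tet2 site ranked 10 of 353 and 1 of 281 by height. Its mean height was 41.2 ± 10.5 (SD, n = 2), which ranked 2 among the 195 shared peaks and 1 among the 82 that lay inside a protein-coding gene. It alone carried 0.932% and 1.60% of the IP tags in all listed peaks of its replicate. The centres called in the separate replicates lay 26 bp apart and the peaks overlapped by 144 bp. Over all shared peaks the median shift of the centre was 27 bp.

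**Figure D1:**
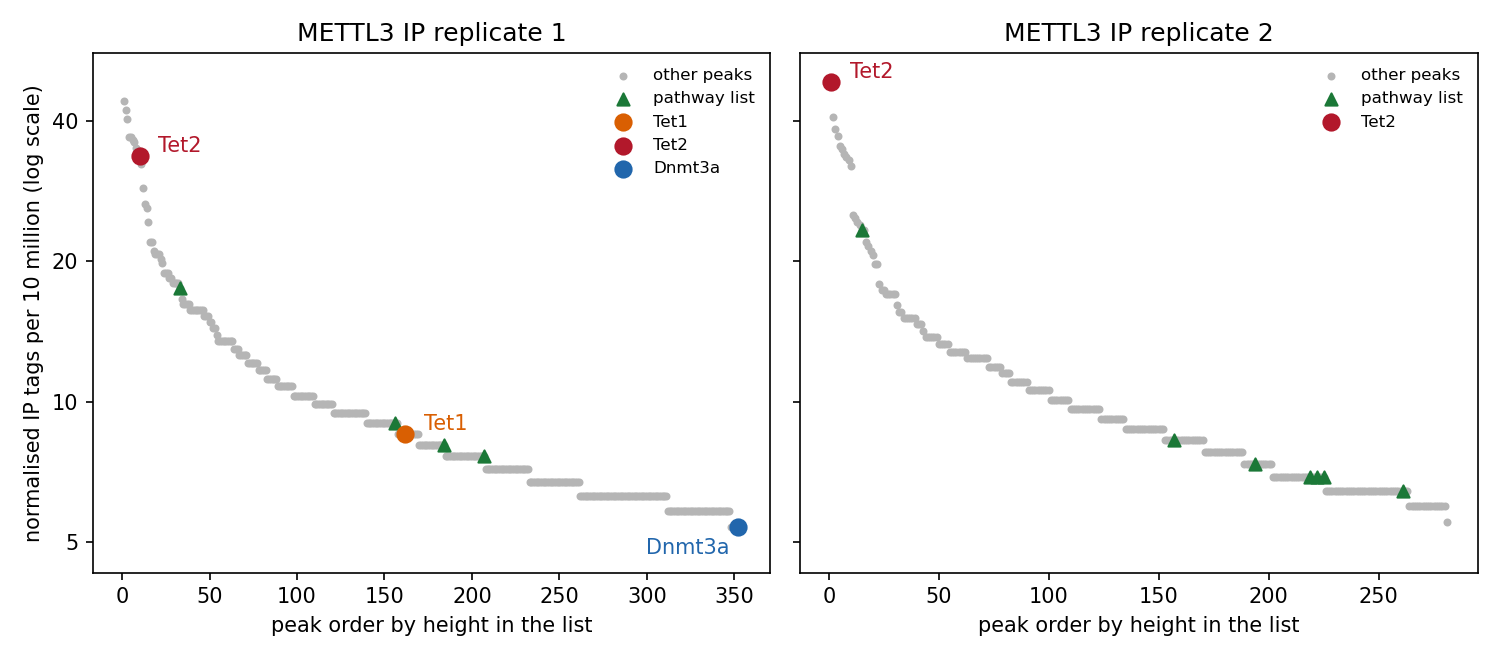
Height of every listed peak (log scale, tags per 10000000) against its order in the list, for each IP replicate; coloured circles are peaks at Tet and Dnmt genes and triangles are peaks within 100 kb of 7 other DNA methylation genes. Tet2 stands at 33.7 and 48.6 near the head of both lists, Tet1 at 8.54 in the middle and Dnmt3a at 5.39 at the foot of replicate 1.

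Input at the Tet2 site was also above that of most peaks. It held 5 input tags in each replicate, a scaled input height of 2.69 ± 0.954 (SD, n = 2), against medians of 3 and 1 tags per peak. Only 26 of the 353 peaks of replicate 1 and 3 of the 281 of replicate 2 held more input tags. The Tet2 ratio of IP to input was 16.7 in replicate 1, with an interval of 6.86 to 53.0. It was 14.5 in replicate 2, with an interval of 6.00 to 45.4. The intervals overlapped almost wholly, and since peaks are listed for IP above input these ratios carry no test. Summed over replicates, 181 IP tags stood against 10 input tags, 16.3-fold (8.66 to 34.6). By the caller's fold over input the Tet2 peak therefore ranked lower, at 72 and 94, than by height. Against the surrounding 10 kb the caller's fold was 34.5 and 45.6, more than for 98% and 99.3% of peaks.

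Tet2 was taller in replicate 2 than in replicate 1. The ratio of its heights was 1.44 (interval 1.06 to 1.97), a comparison of these libraries and not of conditions. Over all shared peaks the median log2 ratio was 0.03 with an SD of 0.36, and Tet2 stood at 0.53. A larger difference in either direction was seen at 28 of the 195 shared peaks (14.4%). Nearly all of these peaks held fewer tags than Tet2 and so had more counting error. That share therefore cannot say whether the Tet2 spread is usual for its height. For the shared peaks ranked 1, 3, 4 and 5 by mean height, the SD of height was 1.06, 4.88, 5.94 and 1.06, against 10.5 at Tet2. Its focus ratio, the fraction of tags on the expected strand side of the centre, was 0.870 and 0.909 against list medians of 0.815 and 0.818.

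The Tet2 site lay inside the gene and away from its start. Tet2 spans 133463677 to 133545136 on chromosome 3, is 81.5 kb long and is transcribed from the minus strand. In both replicates the peak centre lay 19.5 kb downstream of the listed start site, 24.8% of the way into the gene. No other gene in the annotation overlapped it. The nearest others were the pseudogene Gm49316, 54.1 kb away, and the small nucleolar RNA gene LOC115486190, 63.5 kb away. The nearest other METTL3 peak was 2022 kb away in both lists. That distance was larger still for the replicate 1 peaks of Tet1 (2749 kb) and Dnmt3a (7314 kb). Exons and introns are not told apart in the annotation used here.

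**Figure D2:**
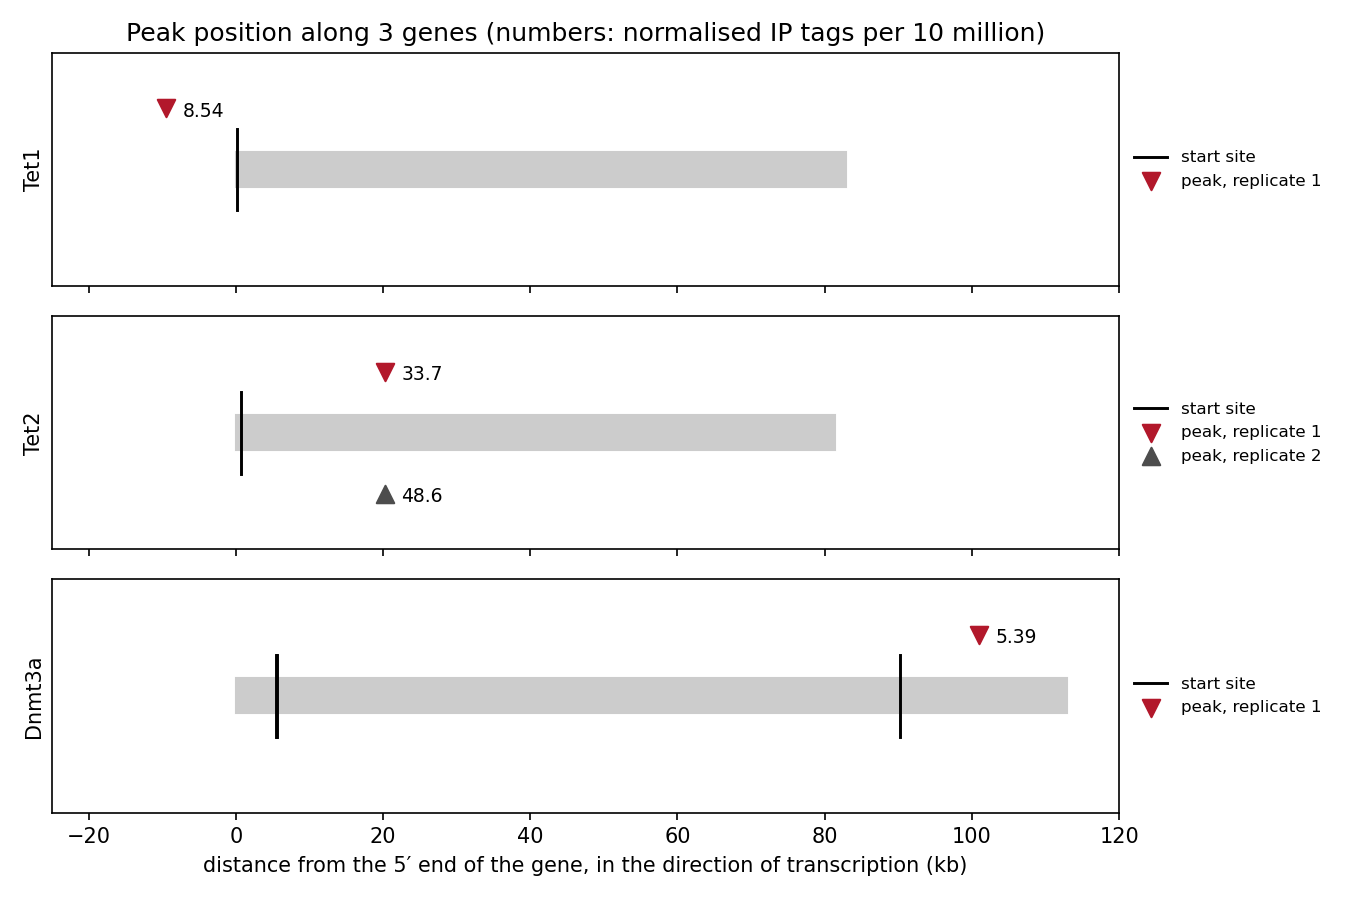
Peak centres along Tet1, Tet2 and Dnmt3a, in kb from the gene's 5′ end in the direction of transcription; grey bars are gene bodies, black lines start sites, triangles peaks with their height in tags per 10000000. The Tet2 peaks of both replicates coincide 20.2 kb into the gene, the Tet1 peak lies before the gene and the Dnmt3a peak lies near its 3′ end.

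Tet1, the other TET gene of embryonic stem cells, had a smaller site that was listed in replicate 1 alone. The peak (chromosome 10, 62896850 to 62897020) had a height of 8.54, from 19 IP tags and 2 input tags, 10.6-fold over input (interval 2.56 to 93.8). It ranked 158 of 353, and 184 peaks of the list were lower, so it was a peak of middle height. Tet1 (62804570 to 62887469, minus strand, 82.9 kb) begins 9.47 kb from the peak, which lay upstream of the gene and 9.61 kb from the listed start site. The long non-coding RNA gene Gm51805 (62865670 to 62910643) spans both the peak and the 5′ part of Tet1. The small nuclear RNA gene Gm26479 lay 3.42 kb away, and Slc25a16, the nearest protein-coding gene after Tet1, 23.7 kb away. A focus ratio of 0.893 was higher than in 87.8% of the list. In replicate 2 the nearest peak was 5372 kb from Tet1.

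Tet3 had no peak within 100 kb in either list. Its nearest peaks lay 418 kb away in replicate 1 (height 6.74) and 658 kb away in replicate 2 (height 9.64), both downstream of the gene and neither shared. The gene (chromosome 6, 83362373 to 83457208) is 94.8 kb long, so its window was no smaller than those of Tet1 and Tet2.

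Among the DNA methyltransferase genes, Dnmt3a alone had a peak, which was one of the lowest of its list by height. In replicate 1 the peak (chromosome 12, 3902648 to 3902818) had a height of 5.39, from 12 IP tags and 3 input tags. This is 4.46-fold over input (interval 1.20 to 24.6). Only 6 peaks had this lowest height, which placed the Dnmt3a site at rank 348 of 353. By findPeaks score it ranked 251 and by the caller's fold 298. The score was 15, where the list begins at 14, and the caller's p-value over input was 2.55e-05 against a limit of 0.0001. Replicate 2 listed no peak within 31728 kb of the gene. The focus ratio was 0.810, near the list median.

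The Dnmt3a site lay towards the 3′ end of the gene. Dnmt3a (3801559 to 3914443, plus strand) is 113 kb long, and the centre lay 89.6% of the way into it, 11.7 kb before its end. Of the 3 start sites in the table, the nearest was the internal one, 11 kb upstream of the centre; internal initiation in Dnmt3a is known to give the shorter form that embryonic stem cells make. The other starts lay 95.6 and 95.8 kb upstream. The long non-coding RNA gene Gm31623 came within 8.05 kb of it.

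Dnmt1, Dnmt3b and Dnmt3l had no peak within 100 kb in either list. Dnmt3b (chromosome 2, 153649411 to 153687730) came nearest to one, a shared site 481 kb upstream with heights of 8.54 and 6.42. For the maintenance enzyme gene Dnmt1 (chromosome 9, 20907206 to 20959888) the nearest peaks were 5787 and 10059 kb away. For Dnmt3l (chromosome 10, 78042287 to 78063622) they were 7388 and 8133 kb away. The farthest peak inside the limit was thus that at Tet1, 9.47 kb away, and the closest outside it that near Tet3, at 418 kb.

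**Figure D3:**
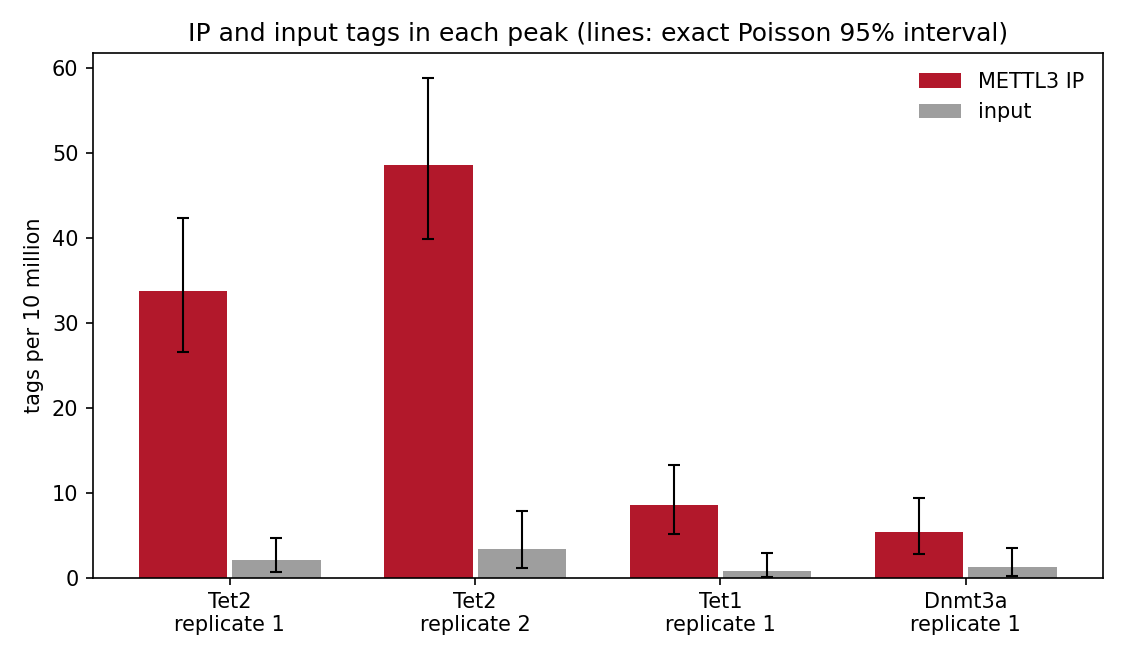
IP and input tags per 10000000 in each of the 4 peaks at Tet and Dnmt genes, with exact Poisson 95% intervals that cover counting error only. IP reaches 33.7 and 48.6 at Tet2, 8.54 at Tet1 and 5.39 at Dnmt3a, with input between 0.806 and 3.36.

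Set side by side, listed peaks at the TET genes held more METTL3 tags than those at the methyltransferase genes, mostly at Tet2. In replicate 1, 2 of 3 TET genes and 1 of 4 DNMT genes had a peak within 100 kb, with 94 and 12 IP tags and 7 and 3 input tags. In replicate 2 the counts were 1 of 3 and 0 of 4, with 106 and 0 IP tags in listed peaks. The searched windows covered 859 kb for the TET genes and 1025 kb for the DNMT genes, and the gene bodies 259 and 225 kb. Within replicate 1 the Tet2 peak was 6.25 times as tall as that of Dnmt3a (interval 3.38 to 12.6) and 3.95 times as tall as that of Tet1 (2.36 to 6.92). Tet1 and Dnmt3a did not differ beyond counting error, at a ratio of 1.58 (0.730 to 3.58). Folds over input at Tet2 and Dnmt3a in replicate 1, 16.7 and 4.46, had overlapping intervals. The contrast in height rested on Tet2, and 3 genes against 4 allow no test of the families.

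Over all 21887 protein-coding genes, 4.16% had a peak within 100 kb in replicate 1, 3.24% in replicate 2 and 2.25% a shared peak. The members stood at 3, 1 and 1 of 7. Inside the gene body the background was 0.635%, 0.525% and 0.37%, and Tet2 and Dnmt3a counted in replicate 1 and Tet2 in replicate 2 and among shared peaks. Within 5 kb the background was 0.818%, 0.658% and 0.466%, and the same genes counted. Long genes offer more room. Of 4945 protein-coding genes of at least 50 kb, 1.96% and 1.66% held a peak in the separate replicates and 1.17% a shared one. With 7 genes chosen after earlier results were known, these counts are a description.

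How often a peak was found again rose with its tag count, as the classes of the member peaks show. Of the 54 peaks of replicate 1 with 31 to 98 IP tags, the class of Tet2, 51 were also listed in replicate 2 (94.4%, exact interval 84.6 to 98.8%). Of the 87 peaks with 17 to 21 tags, the class of Tet1, 52 were (59.8%, 48.7 to 70.1%). Of the 6 peaks with 12 tags, the class of Dnmt3a, 1 was (16.7%, 0.421 to 64.1%). The Tet1 height corresponds to 18.6 tags in replicate 2, where 129 of 281 listed peaks had that many or fewer. The Dnmt3a height corresponds to 11.8 tags, fewer than the lowest listed peak there, which had 12. Both lists begin at a findPeaks score of 14 and hold peaks of 12 tags. That count is thus the lowest seen and not the caller's threshold. A site missing from a list can lie below the caller's threshold or have failed a filter. The filter against input, for example, removed 492 of 778 putative peaks of replicate 2. Which of these holds at Tet1 and Dnmt3a was not tested, since the lists give no value for unlisted sites.

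**Figure D4:**
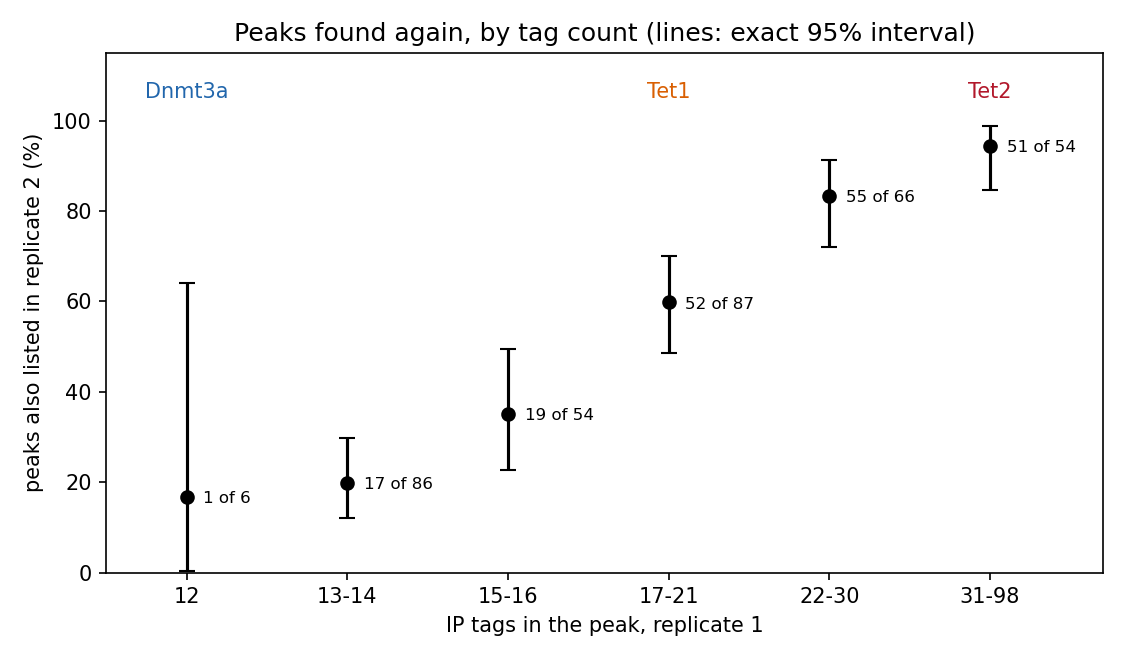
Share of replicate 1 peaks also listed in replicate 2, by IP tags in the peak, with exact 95% intervals; names at the top mark the class of each Tet or Dnmt peak. The share runs from 1 of 6 at 12 tags, the class of Dnmt3a, to 51 of 54 at 31 tags or more, the class of Tet2.

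The peaks most like Tet2 in height over both IP libraries, among shared peaks inside a protein-coding gene, were those in Fryl, Fam174a and Epb41l4a. Their distances from Tet2 in log2 height over 2 samples were 0.34, 0.55 and 0.57. Fryl measured 32.4 and 38.5, Fam174a 36 and 33.5, and Epb41l4a 36.9 and 33.0. Fryl was, like Tet2, taller in replicate 2, whereas the other two were taller in replicate 1. Input tags were 6 and 0 at Fryl, 2 and 2 at Fam174a and 6 and 5 at Epb41l4a, against 5 and 5 at Tet2. Over all shared peaks only the site 4.28 kb from Dstyk on chromosome 1, named after its values were seen, had a higher mean than Tet2. At 41.5 ± 1.06 (SD, n = 2) it lay less than the SD of Tet2 away.

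Other genes of the DNA methylation pathway were taken from a list of 40 that act beside the members as readers, cofactors, repair enzymes or regulators. The list was chosen with earlier results of these data known, so its counts and shares are a description and no evidence of an excess. Shared peaks lay within 100 kb of 4 of them (10.0%, against 2.25% of protein-coding genes), Hells, Mbd2, Ogt and Prdm14. That count fell to 2 within 20 kb, to 2 at a fold of at least 8 and to 1 at or above the median score. The share over all protein-coding genes was not computed at those settings. Within 5 kb the shared count was 2 (5%, against 0.466% of protein-coding genes). Replicate 1 alone gave these 4 as well (4.16% of protein-coding genes). Replicate 2 gave 7 (17.5%, against 3.24%), adding Uhrf1, Gadd45a and Dppa3. Inside the gene body 1 of 40 had a shared peak, Mbd2 (2.5%, against 0.37% of protein-coding genes).

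Prdm14, a regulator that represses Dnmt3b in naive cells, had the tallest of these sites, 28.4 kb from the gene on chromosome 1 (13084985 to 13085155). It measured 17.5 and 23.4, from 39 and 51 IP tags, and ranked 33 and 15. Both values were below those of Tet2 and above those of Tet1 and Dnmt3a. Its input differed, with 8 tags in replicate 1 and 2 in replicate 2, for 5.44-fold (2.50 to 13.5) and 17.4-fold (4.57 to 147).

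At Ogt, which encodes the O-GlcNAc transferase known to bind TET proteins, the peak lay 0.571 kb from the gene in replicate 1 and 0.505 kb in replicate 2, upstream of its start (chromosome X, 101639355 to 101639525). Heights were 8.99 and 6.88, from 20 and 15 IP tags against 1 and 0 input tags. Mbd2, the gene of a methyl-CpG binding protein, held a peak inside its body (chromosome 18, 70623612 to 70623782) with heights of 8.09 and 6.88. These came from 18 and 15 IP tags and 1 input tag in each replicate. Hells encodes a chromatin remodeller needed for DNA methylation. The peak near it, 27.5 and 27.6 kb away on chromosome 19 (38902646 to 38902816), lay inside the neighbouring gene Tbc1d12 and measured 7.64 and 6.42. These 3 sites were close to or below the median height of their list, as the Tet1 peak was in replicate 1.

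Uhrf1, Gadd45a and Dppa3 had a peak in replicate 2 alone. Uhrf1, whose protein brings DNMT1 to newly replicated DNA, had one 4.86 kb away (chromosome 17, 56298389 to 56298557), inside the neighbouring gene Arrdc5. It measured 6.88, from 15 IP tags and 1 input tag. The peak 74.4 kb from Gadd45a, a gene linked to DNA demethylation, measured 8.26 with no input tag. The peak 81.4 kb from Dppa3, whose product protects methylation in the zygote, lay inside Nanog and measured 7.34. Each of the 3 had between 15 and 18 IP tags, and no peak lay within 100 kb of the other 33 listed genes.

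**Figure D5:**
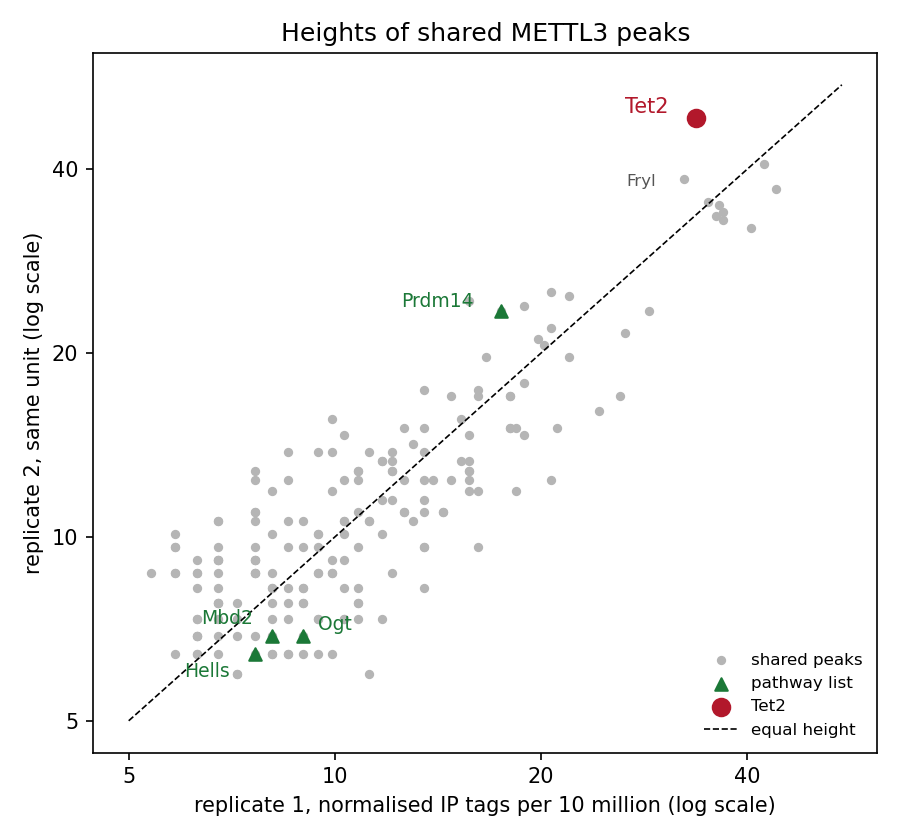
Heights of the 195 shared peaks in replicate 1 and replicate 2 (log scales, tags per 10000000); the circle is Tet2, triangles are shared peaks within 100 kb of pathway genes and the dashed line marks equal height. Tet2 lies above the line at 33.7 and 48.6, Prdm14 at 17.5 and 23.4, and Hells, Mbd2 and Ogt at the low end.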

How the data were processed

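HOMER findPeaks had called peaks separately in each IP library, in factor style, against the input of the same number, per the file headers. They give a false discovery rate of 0.001, a tag threshold of 14, a Poisson p-value of 0.0001 over input and the surrounding 10 kb, a required fold of 1 and at most 1 tag per position. CASAVA, Trimmomatic 0.38, Bowtie 1.2.2 and mm10 are named, per the submitters' processing notes, with no role or settings. The deposited height is a signal scaled to 10000000 tags, the deposited focus ratio a fraction, and the score, fold (a ratio) and p-value are the authors' own. Of the deposited totals, those of replicate 1 are a count of tags and those of replicate 2 a scaled signal.

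Whole IP and input tags were recovered from the deposited columns, to within 0.11 and 0.04 tags. Folds have exact conditional binomial intervals and shares exact Clopper-Pearson intervals (scipy 1.17.1). Genes and start sites came from RefSeq tables of GRCm38.p6, and distances ran from the peak centre to the gene body. All 7 members and 40 pathway genes matched a gene by symbol, but Mbd2, Dppa3 and Prdm14 had no listed start site. Named were every member, each peak within 100 kb of one, each pathway gene with such a peak, and the 3 shared peaks in genes closest to Tet2 in log2 height. Members, lists and rules were chosen with earlier results of these data known, and the tag classes and the 50 kb gene length after the lists were seen. Tag recovery was tested on simulated data. No significance test was made, since peaks had been selected for IP over input. Peak sequences were not analysed here.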

Additional observations from a re-analysis of the deposited data

How the results depend on the processing

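Few tags limit the lower sites: Dnmt3a rests on 12 IP tags and Tet1 on 19, and each on 1 library. Tet2 was the 1 gene of 7 with a shared peak at 20, 50 and 200 kb and from peak edges or start sites. The same held with either other overlap rule, at a fold of at least 8 and at or above the median score. The distance settings could not change this count. The Tet2 peak lay inside its gene, and the next shared peak near a member lay 481 kb from Dnmt3b. Nor could the other settings remove Tet2, whose peaks overlapped by 144 bp, had folds of 16.7 and 14.5 and ranked 10 and 1 by score. Leaving out a replicate gave 1 to 3 genes, with Tet1 and Dnmt3a added without replicate 2. In replicate 1, Dnmt3a dropped out at a fold of at least 8 and among peaks at or above the median score. For Tet2, the summed input of both replicates gave 13.4-fold in replicate 1 and 19.3-fold in replicate 2, and 1 tag added to IP and input gave 14.1 and 12.2. Its pooled fold was 15.5 with the replicate block (Mantel-Haenszel), against 16.3 without, and 14.5 to 16.7 with a replicate left out. By fold in place of height Tet2 ranked 72 and 94. For the pathway list, shared peaks fell to 2 genes within 20 kb, 2 at a fold of at least 8 and 1 at or above the median score. Leaving out a replicate gave 4 to 7 genes of that list, the latter without replicate 1. In replicate 1 alone the list gave 2 genes within 20 kb and 2 at that fold. In replicate 2 alone it gave 3 within 20 kb and 1 at or above the median score. Shares over all protein-coding genes were not computed at 20, 50 or 200 kb, at that fold or at or above the median score. Of 65 alternatives in all, 49 stayed within the limits set for them. Those limits differed between results, and some were wide. The loss of Dnmt3a in replicate 1 at a fold of at least 8, from 3 genes to 2, counted as within them. So did its rank of 251 by score against 348 by height. At Tet2 in replicate 1, 14.1-fold against 16.7 counted as outside. The 49 also include the distance settings that could not change the shared count of members. The tally is therefore no measure of robustness.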
